A study of Mus musculus with 11 samples.

Results

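The 7 control libraries of the series held RNA pulled down with tagged ribosomes of Purkinje cells from the cerebellum of adult mice without floxed Tie2 alleles. They were chosen by their label, the genotype Pcp2Cre;Rpl22HA/HA, and make up 7 of the 11 libraries; the other 4, which also carry floxed Tie2 alleles, were not used. Every control mouse was 56 days old (postnatal day 56) and carried both the Cre recombinase under the promoter of Pcp2, a gene used to mark Purkinje cells, and the Rpl22HA/HA allele. In this RiboTag design Cre exchanges the last exon of the ribosomal protein gene Rpl22 for a copy with an HA tag, so that an antibody to HA collects ribosomes, and the RNA on them, from cells that express or once expressed Cre. The pull-down is thus limited to Purkinje cells only as far as the Pcp2 promoter is, and Cre activity in other cells was not measured here. No library of whole-tissue RNA was used here, so every value is a level in the pull-down and not an enrichment over the tissue. The labels assign 1 control to batch 1 (M379), 1 to batch 2 (M386) and 5 to batch 3 (F473, M476, M477, M479 and M480), each from an animal with its own tag. What a batch stands for is not stated in the sources used here, and a batch with 1 library cannot be told apart from its animal.

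Purkinje cells are large inhibitory neurons of the cerebellar cortex whose axons form its output. They fire spontaneously with the help of fast sodium, calcium and potassium channels, and parallel fibre input reaches them through AMPA receptors and through receptors coupled to the G protein Gq. Gq activates phospholipase C, which makes IP3, and IP3 releases calcium from stores through the receptor encoded by Itpr1, and calbindin and parvalbumin buffer that calcium.

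The libraries held 4.09 to 5.14 M reads in genes (4.57 M ± 0.394, SD, n = 7), and 17744 to 22471 genes had at least 1 read. Levels are given as reads per 1000000 reads in genes (CPM), in which 1 read is worth 0.194 to 0.245 CPM. CPM is not divided by transcript length, so a longer RNA collects more reads at equal abundance, and an order of genes by CPM is an order of reads and not of molecules. Pairs of libraries correlated across 14881 genes at a Pearson r of 0.892 to 0.974 on the log2 scale. Genes within a library are not independent replicates, so this only describes the libraries. M386 stood furthest apart, with a median r of 0.907 to the others, and M379 and M476 both had a median of 0.944. M386 also had reads in the fewest genes, 17744, against 20258 (F473) to 22471 (M480) in the other libraries. Its total, 4.34 M, was above those of M379 (4.19 M) and M476 (4.09 M). Of the genes tested below, 571 had 0 reads in M386, against 68 (M480) to 161 (M379) in the others. Why M386 had reads in fewer genes was not tested. Among F473, M477, M479 and M480 the lowest r was 0.963. All 5 Purkinje markers checked, Pcp2, Calb1, Car8, Itpr1 and Dner, had between 450 reads (Pcp2 in M477) and 7330 reads (Itpr1 in M480) in each library. Rpl22 itself, the tagged gene, lay at 165 CPM ± 8.60 (SD, n = 7). Ddx3y, a Y-linked gene, had 3 reads in F473 and 486 to 1197 in the libraries tagged M.

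Reads were spread over very many genes. The most read gene of a library took 0.109% to 0.147% of its reads, the 100 most read took 5.20% to 5.98%, and 2074 to 2180 genes were needed to reach 50% of reads (2123 ± 35.9, SD, n = 7). Genes among the 100 most read in all 7 libraries numbered 40, and 172 were among them in at least 1 library. Without M386 these numbers were 55 and 155, and without M386 and M476 they were 62 and 142.

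Itpr1 (ENSMUSG00000030102, chromosome 6, 108213083 to 108551116 in GRCm38), the IP3 receptor of the Purkinje calcium store, was the most read gene. It reached 1136 CPM in M379, 946 in M386, and 1474, 1474, 1429.7, 1420.0 and 1425 in F473, M476, M477, M479 and M480. The 5 libraries of batch 3 lay close together and above both M379 and M386. Rgs8 (ENSMUSG00000042671, chromosome 1, 153652959 to 153697669), a regulator that shortens G protein signals, came second with 1220.1 CPM in M379, 1085 in M386, and 1298, 1194, 1249.9, 1221 and 1199 in F473, M476, M477, M479 and M480, a mean of 1209 CPM ± 65.2 (SD, n = 7). M379 lay within the range of batch 3 here and M386 below it. In M379 and M386 Rgs8 in place of Itpr1 was the most read gene. Rora (ENSMUSG00000032238, chromosome 9, 68653404 to 69388246), a nuclear receptor that Purkinje cells need to mature and survive, came next with 1011 CPM in M379, 1021 in M386, and 1184, 1051, 1204, 1183 and 1117 in F473, M476, M477, M479 and M480. The lowest Rora levels were those of M379, M386 and M476. Atp2b2, a plasma membrane calcium pump, followed with 1019 CPM ± 151 (SD, n = 7).

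Calb1, calbindin, lay at 795 CPM ± 58.7 (SD, n = 7) and Car8, a protein related to carbonic anhydrases that binds the IP3 receptor, at 709 CPM ± 50.9 (SD, n = 7). Their values were 870.4 CPM in M379, 845 in M386, and 775, 845, 772, 746 and 713 in F473, M476, M477, M479 and M480 for Calb1. For Car8 they were 788 CPM in M379, 722 in M386, and 711, 749, 695, 664 and 636 in F473, M476, M477, M479 and M480. Both were highest in M379 and lowest in M480, which is the most deeply sequenced library. Dner, a transmembrane protein of Purkinje dendrites with EGF repeats, was at 505 CPM ± 34.8 (SD, n = 7) and rank 49. Pcp2, the gene whose promoter drives the Cre, had only 105 CPM ± 11.3 (SD, n = 7) and rank 3439. Its 502 reads in M379, 467 in M386, and 463, 489, 450, 470 and 481 in F473, M476, M477, M479 and M480 were almost the same number everywhere. The other most read genes were mixed in function, among them Kcnma1 (729.9 CPM), the large-conductance calcium-activated potassium channel, Map4 (787 CPM), which binds microtubules, and Kitl (604 CPM), the ligand of the Kit receptor.

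**Figure D1:**
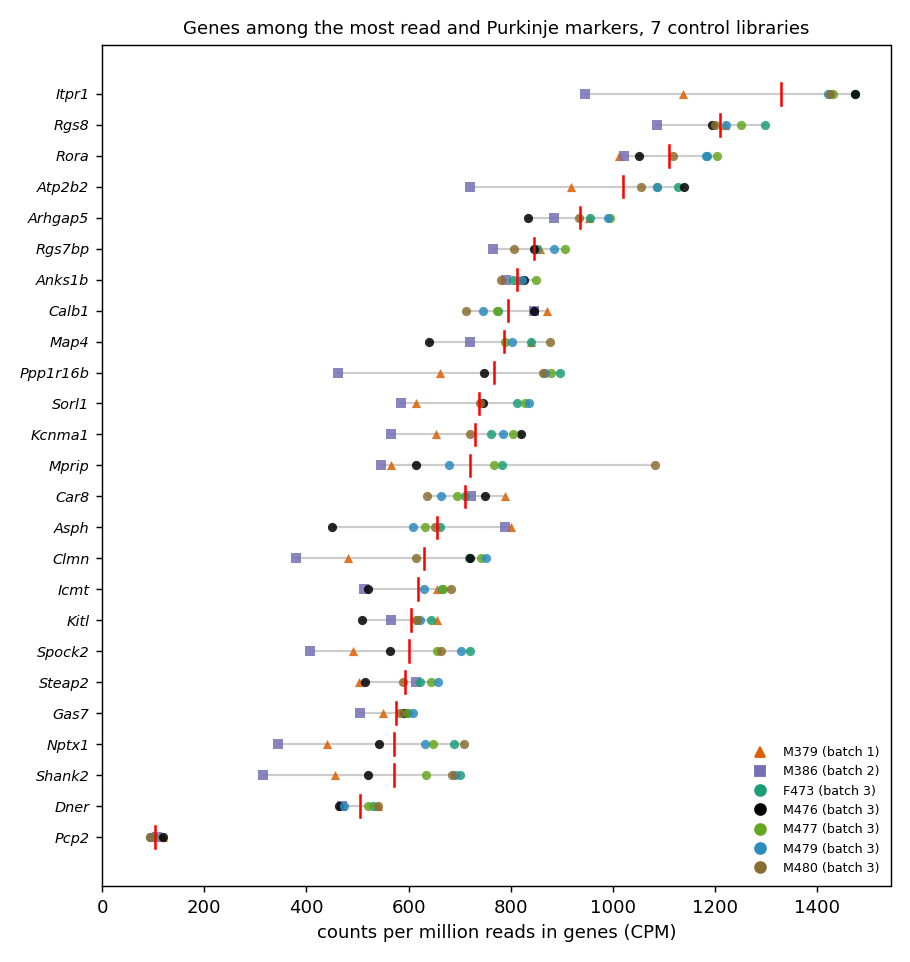
Each row is a Purkinje marker or a gene among the most read, each symbol its level in 1 control library in CPM on a linear axis from 0, and the red tick the mean of the 7 libraries; triangles mark batch 1, squares batch 2 and circles batch 3. Itpr1 leads with a mean of 1329 CPM, while Pcp2 sits near the origin at 105 CPM; for Itpr1, Atp2b2, Ppp1r16b, Clmn and Shank2 the square of M386 and the triangle of M379 lie left of all circles.

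Rora encodes RORα, a ROR nuclear receptor. The half-site of these receptors on DNA is AGGTCA, and the start regions of Purkinje genes were searched for these letters on both strands. The windows are RefSeq's for GRCm38.p6, each from 250 bases before to 50 bases after an annotated start. Of the 24 Purkinje marker genes, 11 had at least 1 window, and 8 of their 19 windows (42.1%) held a match, compared with 16.3% of 32851 windows of all genes. Windows of 1 gene can overlap and share a site, so they are not independent. Counted by gene, 6 of the 11 had a match, compared with 4900 of 27025 genes with a window. Lists of other cell types ranged widely on few windows, from 0 of 13 for oligodendrocyte genes to 62.5% of 8 for microglial genes, a higher share than that of Purkinje genes. Between these lay 21.4% of 14 for granule cell genes and 33.3% of 15 for Bergmann and astrocyte genes. TATAAA on the gene's own strand was in 0 of the 19 Purkinje windows and in 8.32% of all windows. It was likewise in 0 of 14 granule, 0 of 15 Bergmann and astrocyte, and 0 of 16 interneuron and unipolar brush cell windows. A match describes letters and is not a site of binding. No match was in the windows of the markers Plcb4, Slc1a6, Lhx1, Gng13 and Prkg1 or in that of Rora itself, and Calb1, Car8 and Itpr1 had no window. Only windows with a match are shown, from genes that mark Purkinje cells or lead the reads, with the matches in capitals. They are those of Pcp2 (minus strand, chr8:3625498-3625797), Dner (minus strand, chr1:84696172-84696471) and Rgs8 (plus strand, chr1:153665423-153665722).
Pcp2: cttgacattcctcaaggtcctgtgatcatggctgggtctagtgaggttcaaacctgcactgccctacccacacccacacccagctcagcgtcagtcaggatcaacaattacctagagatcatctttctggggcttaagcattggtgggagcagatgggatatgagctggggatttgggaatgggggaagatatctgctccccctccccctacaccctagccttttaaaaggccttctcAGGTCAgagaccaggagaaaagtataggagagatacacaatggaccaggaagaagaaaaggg
Dner: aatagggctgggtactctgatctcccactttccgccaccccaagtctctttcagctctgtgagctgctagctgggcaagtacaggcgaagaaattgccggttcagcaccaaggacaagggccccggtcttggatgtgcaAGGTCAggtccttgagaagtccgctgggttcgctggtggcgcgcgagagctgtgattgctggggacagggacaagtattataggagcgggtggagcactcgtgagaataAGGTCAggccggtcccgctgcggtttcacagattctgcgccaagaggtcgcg
Rgs8: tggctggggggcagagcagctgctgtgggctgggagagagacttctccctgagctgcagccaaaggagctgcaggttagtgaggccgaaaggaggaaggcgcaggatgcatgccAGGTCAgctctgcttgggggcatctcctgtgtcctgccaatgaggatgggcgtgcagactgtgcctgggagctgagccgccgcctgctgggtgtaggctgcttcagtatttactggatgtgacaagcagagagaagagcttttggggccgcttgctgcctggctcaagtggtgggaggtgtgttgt
The Pcp2 match begins 12 bases before the start shown. Dner has 2 matches, beginning 111 and 2 bases before it, and Rgs8 has 1 at 136 bases before its start, in 1 of its 3 windows. Pcp2 has 4 windows, of which 3 held a match, at 2 different sites. Whether the Pcp2Cre transgene holds the bases shown is not stated in the sources used here.

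Purkinje markers were highly read as a group. The 24 genes together made up 0.980% ± 0.0557 of reads (SD, n = 7), from 8722 CPM in M386 to 10459.5 CPM in M476, and all 24 had reads in every library. Their median level was 353 CPM, beside 35.1 CPM for the 14938 genes tested; 10 ranked among the 100 most read genes and 16 among the first 1000. Several act in 1 pathway. Gnaq, the alpha subunit of Gq, lay at 486 CPM ± 27.3 (SD, n = 7). Plcb4, the phospholipase C that Gq activates in most Purkinje cells, had 472.7 CPM ± 69.7 (SD, n = 7). Homer3, a scaffold of this pathway that binds the IP3 receptor, had 257 CPM ± 15.4 (SD, n = 7). The enzymes that remove IP3, Inpp5a and Itpka, lay at 387 CPM ± 15.8 (SD, n = 7) and 228 CPM ± 24.5 (SD, n = 7). Of the 13 genes listed for this pathway, 12 averaged at least 100 CPM; the exception was Ryr1, a ryanodine receptor, at 54.8 CPM.

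Some well-known Purkinje markers had fewer reads. Pcp4, a calmodulin-binding peptide, lay at 76.4 CPM ± 10.5 (SD, n = 7), and Gng13, a G protein gamma subunit, at 65.99 CPM ± 11.8 (SD, n = 7). The transcription factors of the list were read at 352 CPM for Lhx1, 159.9 for Lhx5, 156 for Foxp2 and 43.99 for Skor2, which was the least read Purkinje marker. Outside that list, Ebf1 reached 402 CPM ± 18.3 (SD, n = 7) and Ebf2 167 CPM ± 13.8 (SD, n = 7); both encode helix-loop-helix factors. Rorb, a relative of Rora, had 4.56 CPM.

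Among membrane proteins, the calcium channel genes were led by Cacnb4 (508 CPM ± 46.5 (SD, n = 7)), a beta subunit, and Cacna1g (405 CPM ± 79.1 (SD, n = 7)), a T-type channel. Cacna1a, the P-type channel that carries most Purkinje calcium current, was read at 111 CPM ± 40.6 (SD, n = 7). Scn4b, the sodium channel subunit linked to resurgent current, had 436 CPM ± 147 (SD, n = 7), and Scn8a and Scn1a, which encode the pores, 325 and 298 CPM. Of the AMPA receptor genes, Gria2, Gria3 and Gria1 had 419.8, 289 and 283 CPM. For the transmitter GABA, Gad1 had 441 CPM ± 56.8 (SD, n = 7), Gad2 324 CPM ± 31.5 (SD, n = 7) and the vesicle loader Slc32a1 135 CPM ± 45.1 (SD, n = 7).

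Nuclear-encoded genes of oxidative phosphorylation took 0.931% ± 0.0907 of reads over 83 genes (SD, n = 7), close to that of the 24 Purkinje markers. Proteasome subunits took 0.524% ± 0.0506 over 39 genes, glutamate synapse genes 0.473% ± 0.0527 over 16, calcium buffers and pumps 0.433% ± 0.0208 over 12, and genes linked to hereditary ataxia 0.499% ± 0.0493 over 24. Cytosolic ribosomal protein genes, which are short, took 0.259% ± 0.0360 over 76 genes, and the 13 protein genes of mitochondrial DNA 0.0676% ± 0.0125. In 6 of these 13, among them mt-Co2, mt-Co3 and mt-Atp6, every library had 0 reads. Some other genes were also low, for example Actg1 (0.821 CPM), a cytoplasmic actin, Gapdh (15.3 CPM) and Pgk1 (10.6 CPM). Alignments to several places made up 7.91% to 9.40% of all alignments and were not counted in genes. The levels of genes with near-identical copies elsewhere in the genome are therefore uncertain. The part of such copies in these low levels was not tested. Predicted genes with Gm or Rik symbols and the like held 2.66% to 3.32% of reads. Immediate early genes, which neurons induce within minutes of activity, took 0.0162% ± 0.00229; Ier2 was highest at 46.9 CPM, and Fos lay between 2.41 CPM in M479 and 19.6 CPM in M379. Of the long non-coding RNAs, Snhg11 had 168 CPM ± 5.41 (SD, n = 7), Malat1, a nuclear RNA, 94.2 CPM ± 16.2 (SD, n = 7), and Meg3 2.34 CPM ± 0.526 (SD, n = 7).

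How constant a class was depended on the class. The V-type proton pump varied least, its highest library 1.07 times its lowest, followed by translation factors (1.09 times) and chaperones (1.10 times). The Gq and IP3 genes varied 1.17 times and glutamate synapse genes 1.36 times. The cytoskeletal list of spectrins, ankyrins, neurofilaments and actins spread most of the 25 lists, from 2524 CPM in M386 to 4443 CPM in M480. M386 had the lowest share in 14 of the 25 functional lists, M379 in 2 and M480 in 4.

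**Figure D2:**
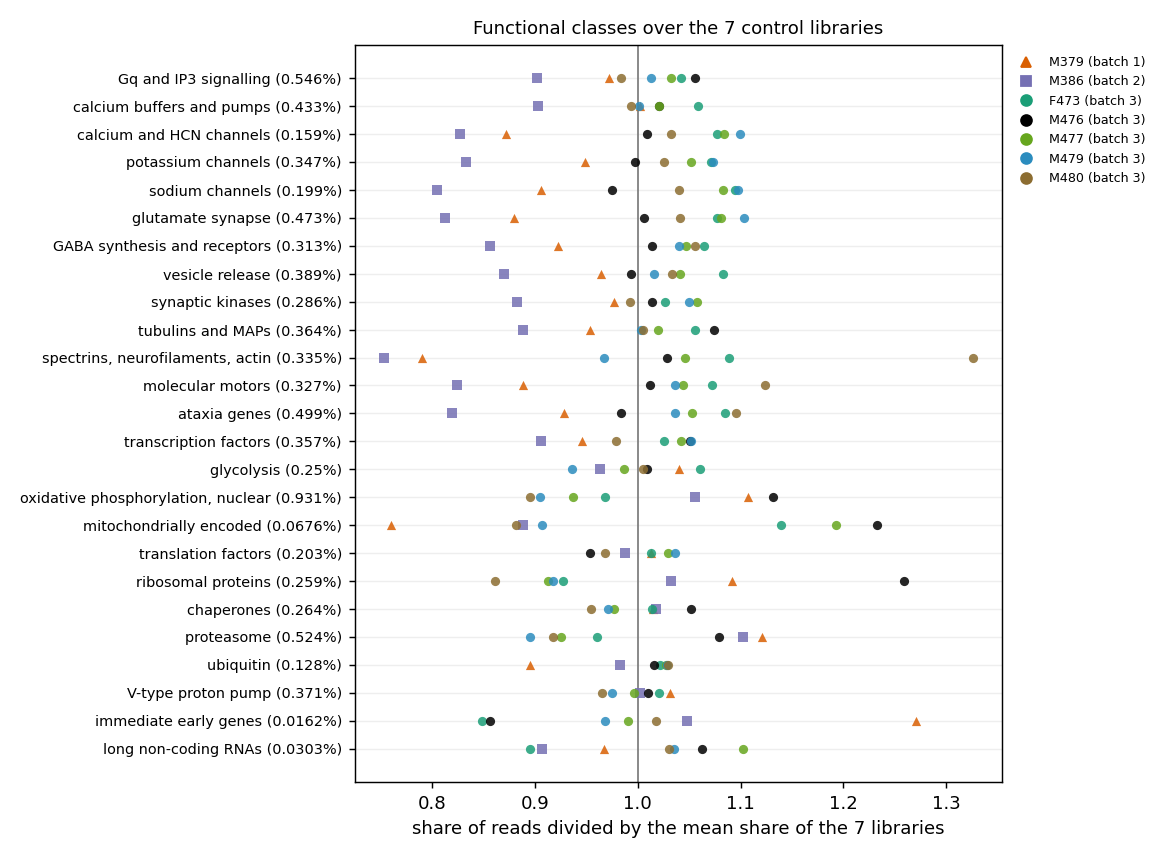
Each row is a functional class with its mean share of reads in brackets, and each symbol is the share in 1 library divided by the mean of the 7 libraries on a linear axis. M386 (square) and M379 (triangle) lie left of the other libraries in the channel and synapse rows, while M480 stands alone at the right in the row of spectrins and neurofilaments (4443 CPM).

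For single genes, the spread over libraries was expressed as a biological coefficient of variation (CV), which is the SD over the mean after the variance expected from counting reads is taken off. Among 6341 genes of at least 50 mean CPM its median was 14.4%, and 10% of genes lay under 7.001% and 10% over 26.1%. Within batch 3 alone the median was 11.02%, and with M386 and M476 left out it was 9.98%. Of the 24 Purkinje markers, 23 were above 50 CPM, with a median of 9.81%. Anks1b, a synaptic scaffold, was among the steadiest of the most read genes at 2.27% (782 to 848 CPM), Rgs8 had 5.22% and Itpr1 15.4%.

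In 30 of the 6341 genes CPM varied less than counting error alone would give. The 10 lowest in that order were Zfp74, Ublcp1, Eef1a1, Tmem43, Hexa, Trim3, Rraga, Pigf, Stx18 and Drosha. Zfp74, a zinc finger gene, had 56.9 to 59.2 CPM (median 57.01), and Drosha, the nuclease that starts microRNA processing, 168 to 179 CPM (median 171). At the other end were Utp18, Sptb, Kat6a, Ankrd52, Ttr, Sptbn1, Carf, Eif2s3y, Cers1 and Mast1, with CVs of 56.2% to 69.1%. Eif2s3y is Y-linked and had 0 reads in F473.

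**Figure D3:**
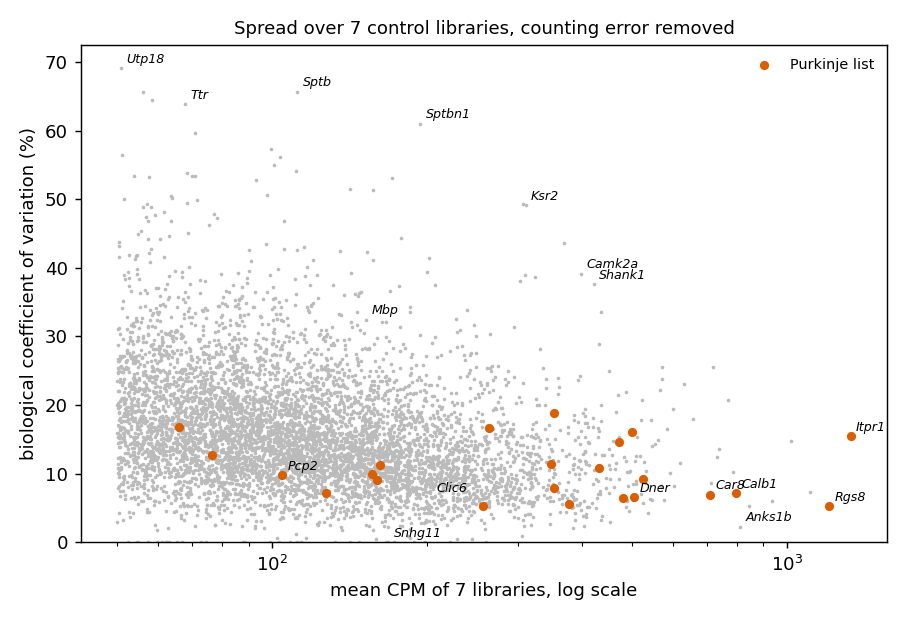
Each grey point is 1 of 6341 genes, with its mean CPM over the 7 control libraries on a log axis and its biological CV in percent on a linear axis; orange points are the 23 Purkinje markers of at least 50 CPM. Purkinje markers lie mostly low, with Rgs8 at 5.22% and Itpr1 at 15.4%, while Utp18 (69.1%), Sptb (65.6%) and Ttr (63.8%) lie at the top.

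The libraries of batches 1 and 2 differed from batch 3 in part of the genes, mostly by lower levels. By edgeR's quasi-likelihood test on 14938 genes with Benjamini-Hochberg adjustment, 1258 genes (8.42%) differed between the 3 batches at an adjusted p under 0.05. In the batch 1 library M379, 33 genes (0.221%) were higher and 135 (0.904%) lower than in batch 3; in the batch 2 library M386, 366 (2.45%) were higher and 1194 (7.99%) lower. The lone library of a batch was assumed to vary like those of batch 3, and a p-value covers only the spread between these samples. These counts rested strongly on M476: without it the test called 4115 genes between batches, with 961 (6.57%) higher and 1255 (8.59%) lower in M379 and 1599 (10.9%) higher and 2524 (17.3%) lower in M386, of 14617 tested. Without any other library of batch 3 the test between batches called fewer: 342 without F473, 338 without M477, 563 without M479 and 823 without M480.

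Synaptic genes were among those lower in M386. Here and below, the counts for lists were repeated only without M476. They were not repeated without another library of batch 3, where fewer of all genes were called. In M379, 0.904% of all genes were lower. Without M476, 17.3% of all genes were lower in M386 and 8.59% in M379. Of 15 tested glutamate synapse genes, 6 were lower in M386 and 0 higher, where 7.99% of all genes were lower, and their median log2 difference was -0.41 beside -0.05 for all genes. Without M476, 9 were lower in M386 and 7 in M379, where 2 were lower with all libraries. Shank1, a scaffold of the postsynaptic density, had 219 CPM in M379, 167 in M386, and 539, 489.6, 494, 552 and 492 in F473, M476, M477, M479 and M480. M379 and M386 lay below every library of batch 3, with a log2 difference of -1.22 ± 0.13 (SE), adjusted p = 0.00608 for M379 and a log2 difference of -1.66 ± 0.14 (SE), adjusted p = 1.69e-04 for M386 (edgeR). Its relative Shank2 was lower in M386 (log2 difference of -1.08 ± 0.17 (SE), adjusted p = 0.00531 by edgeR) and at -0.50 ± 0.17 in M379, which did not pass. Camk2a, a subunit of the calcium and calmodulin-dependent kinase, had 232 CPM in M379, 126 in M386, and 483, 543, 485, 485 and 429 in F473, M476, M477, M479 and M480. In edgeR's test it was lower in M386 with a log2 difference of -1.98 ± 0.14 (SE), adjusted p = 1.39e-04, and in M379 with a log2 difference of -1.05 ± 0.13 (SE), adjusted p = 0.00675. The other genes lower in M386 were Cacng7, Dlg2, Dlg4 and Nlgn2, which encode proteins that anchor or modulate receptors. AMPA receptor genes gave no such call in M386: Gria2 had a log2 difference of 0.17 ± 0.13 there, which did not pass, and Gria4 was lower in M379 alone at -1.78 ± 0.36, which passed. Of 16 vesicle release genes 5 were lower in M386, among them Syt1, the calcium sensor of release, at -1.12 ± 0.23, and 0 were lower in M379. Without M476 these counts were 9 and 4.

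Ion channel genes were also among those lower. In M379 the median log2 differences were -0.60 for calcium and HCN channel genes, -0.43 for sodium and -0.26 for potassium channel genes. The median of all genes there was -0.03. For M386 these medians were -0.64, -0.48 and -0.36, beside -0.05 for all genes. In M379, 0.904% of all genes were lower. Without M476, 8.59% of all genes were lower and 6.57% higher in M379. Cacna1a had 75.9 CPM in M379, 53.4 in M386, and 106, 179.6, 131, 125 and 107 in F473, M476, M477, M479 and M480, a log2 difference of -1.31 ± 0.28 (SE), adjusted p = 0.0157 in M386 by edgeR. Sodium channel genes gave 3 lower of 9 tested in M386, namely Scn4b, Scn8a and Scn1a, and potassium channel genes 4 of 14, with Kcnma1 at a log2 difference of -0.50 ± 0.10 (SE), adjusted p = 0.0111 (edgeR). Without M476 the sodium list had 3 lower and 1 higher in M386, and the potassium list 7 lower. Over all genes 7.99% were lower in M386, and 17.3% without M476. Of 11 GABA genes 4 were lower in M386 and 1 in M379 (8 and 6 without M476), among them Slc32a1, which had 74.4 CPM in M379, 75.1 in M386, and 149, 189, 162, 166 and 127 in F473, M476, M477, M479 and M480. Purkinje markers gave 4 lower of 24 in M386 (Itpr1, Mtss1, Plcb4 and Lhx1) and 0 in M379, with list medians of -0.17 and 0.03; without M476 the counts were 9 lower in M386, and 2 higher and 2 lower in M379. Itpr1 had a log2 difference of -0.65 ± 0.08 (SE), adjusted p = 0.00148 in M386 by edgeR. Calb1, Car8, Dner and Pcp2 did not pass in either library.

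With all 7 libraries, lists of housekeeping genes gave few calls or none. For M379 this was so over all genes too, with 0.221% higher and 0.904% lower. Without M476, 17.3% of all genes were lower in M386. Glycolysis had 0 calls of 16 tested in either library, oxidative phosphorylation 0 of 82 and ribosomal proteins 1 of 76, higher in M386. Of 37 proteasome genes 2 were higher and 1 lower in M386 and 0 passed in M379. Over all genes 2.45% were higher and 7.99% lower in M386. At an unadjusted p under 0.05 the batch test called 3860 of all genes. Without M476, 7 oxidative phosphorylation genes were higher in M379 and 5 in M386, beside 6.57% and 10.9% of all genes. Of the proteasome genes 12 were then higher in M379, and 8 higher and 2 lower in M386, and of 16 glycolysis genes 3 were lower in M386. Ribosomal protein genes gave 4 higher in M379, and 3 higher and 1 lower in M386. Whether the classes differed from each other was not tested.

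Genes with the smallest p in each direction were mostly outside the lists. Among those lower in M386, Atg9a, a membrane protein of autophagy, had 41.03 CPM in M379, 5.76 in M386, and 125, 107, 119.8, 117 and 135 in F473, M476, M477, M479 and M480, a log2 difference of -4.42 ± 0.30 (SE), adjusted p = 1.39e-04 by edgeR. Ksr2, a scaffold of the MAP kinase cascade, had 123 CPM in M379, 67.9 in M386, and 392, 335, 417, 465 and 376 in F473, M476, M477, M479 and M480. Hipk2, a nuclear kinase, had 102 CPM in M379, 60.1 in M386, and 243, 268, 239, 259 and 242 in F473, M476, M477, M479 and M480, and Crtc1, a coactivator of CREB, and Lypla2, a thioesterase, were lower too, at 61.03 and 37.3 CPM in M386 against batch 3 means of 245 and 176. In all of these M386 was the lowest library and M379 the next lowest. Gpr63, an orphan receptor enriched in Purkinje cells, had 22.7 CPM in M379, 18.9 in M386, and 128, 115, 142, 146 and 134 in F473, M476, M477, M479 and M480. Map1a, which binds microtubules in dendrites, and Arhgap32, a GTPase regulator, were lower in both libraries as well. The comparisons of M379 and M386 share the 5 batch 3 libraries, so they are not independent of each other.

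A smaller set was higher. Arglu1, a splicing coactivator, had 199.7 CPM in M379, 237 in M386, and 102, 90.04, 99.7, 114 and 106 in F473, M476, M477, M479 and M480, a log2 difference of 1.17 ± 0.16 (SE), adjusted p = 0.0028 in M386 by edgeR. Rap2b, a small GTPase, had 29.6 CPM in M379, 37.3 in M386, and 7.01, 3.67, 5.77, 8.84 and 6.42 in F473, M476, M477, M479 and M480. Zbtb21, Bloc1s4, Mcmbp and Trarg1 completed the 6 of smallest p in M386, with levels of 81.3, 109, 99.5 and 57.3 CPM there and batch 3 means of 22.4, 32.3, 34.4 and 17.3. Utp18, a ribosome assembly factor and the most variable gene, reached 84.4 CPM in M379 and 116 in M386, while batch 3 stayed between 20.3 and 38.8.

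M379 stood apart by genes of connective tissue, cartilage and neutrophils. Chad and Comp, proteins of cartilage matrix, had 78 and 83 reads in M379 and at most 2 and 6 in any other library. Ngp, Ltf and S100a9, stored in or abundant in neutrophils, had 187, 129 and 95 reads there, against highest counts elsewhere of 12, 6 and 8. Col1a1, type I collagen, had 295 reads in M379, 0 in M386, and 20, 33, 20, 3 and 30 in F473, M476, M477, M479 and M480, and Col3a1 122 reads in M379 and at most 21 elsewhere. Chad, Comp, Ngp, Ltf, S100a9 and Col3a1 were the 6 genes of smallest p among the 33 higher in M379. Their part in the differences of M379 was not tested.

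In M480 genes of large cytoskeletal proteins were high. Sptan1, alpha spectrin, had 196 CPM in M379, 212 in M386, and 367, 239, 298, 214 and 622 in F473, M476, M477, M479 and M480. M480 was the highest library for it and for Sptb and Sptbn1, other spectrins, and for Dst, a giant linker protein, at 322 CPM there and 76.1 CPM in M379. M480 belongs to batch 3, and none of Sptan1, Sptb, Sptbn1 and Dst passed either batch test. This description of M480 was chosen after its values were seen.

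**Figure D4:**
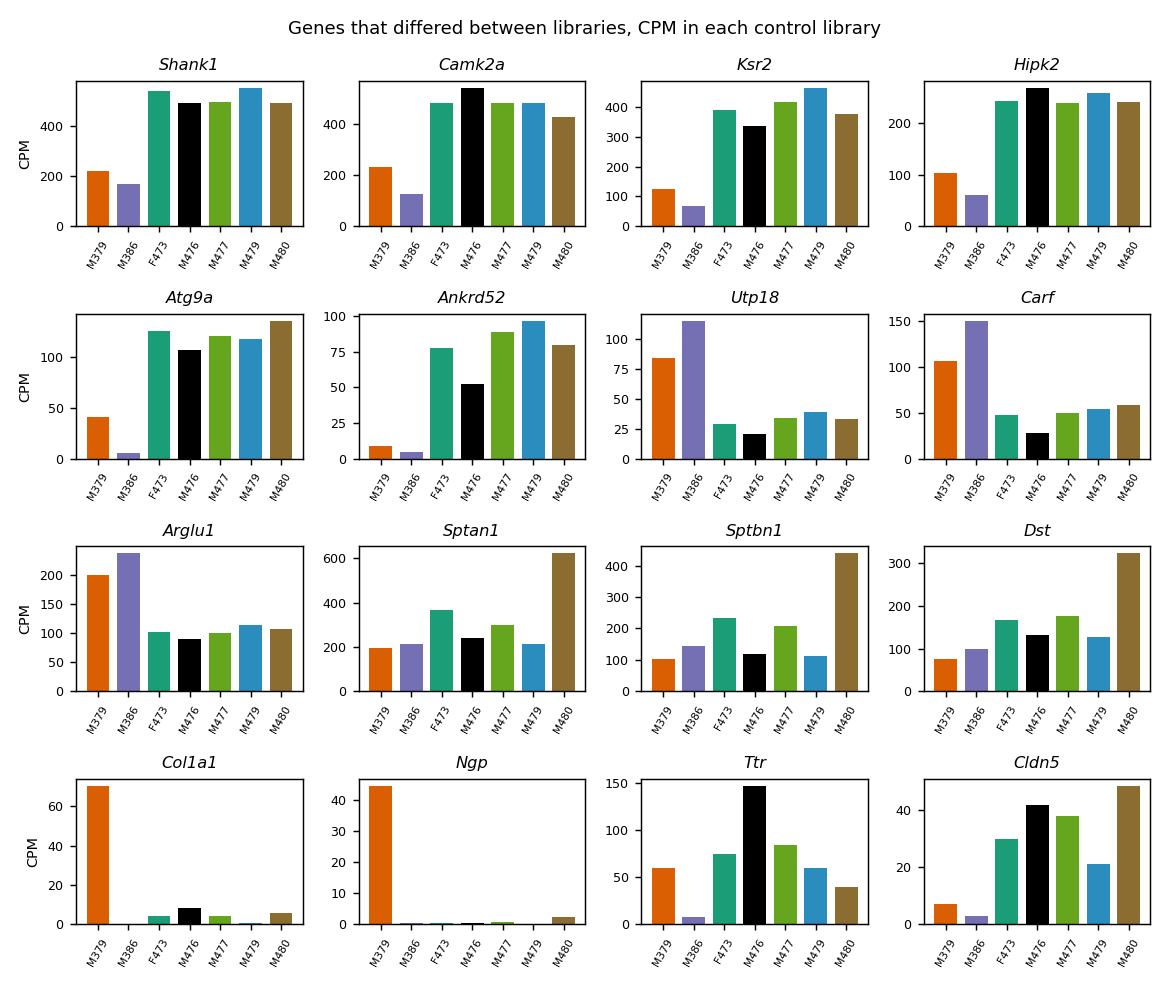
Each panel is a gene and each bar its CPM in 1 control library, on a linear axis from 0; the first bar is batch 1, the second batch 2 and the other 5 batch 3. Shank1, Camk2a, Ksr2, Hipk2, Atg9a and Ankrd52 are lowest in M379 and M386, Utp18, Carf and Arglu1 are highest there, Sptan1, Sptbn1 and Dst peak in M480, and Col1a1 and Ngp appear almost only in M379, Ttr peaks in M476 and Cldn5 is lowest in M379 and M386 (Col1a1 and Ngp in M379: 70.4 and 44.6 CPM).

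The raw reads of several Purkinje messages hardly moved while the library total rose 1.26 times from the smallest to the largest library. Pcp2 reads had an SD of 17.4 around a mean of 475, where counting alone gives 21.8. Calb1 had 3453 to 3710 reads, Car8 3061 to 3304 and Pvalb, parvalbumin, 953 to 988. In raw reads 128 of the 6341 genes (2.02%) varied less than counting error. Per doubling of the total, Pcp2's share of reads changed by a log2 of -1.04 ± 0.43 (SE), Calb1's by -0.70 ± 0.28 and Itpr1's by 0.84 ± 0.64. Oxidative phosphorylation, ribosomal protein and proteasome genes also took more of the reads in the 3 smallest libraries, M476, M379 and M386, than in the other 4. For oxidative phosphorylation the sums were 10542, 10313 and 9830.1 CPM in these 3, and 8339.8 to 9016 CPM in the others. Their median slopes were -1.11, -1.52 and -1.02, beside 0.06 for all genes and -0.17 for the 24 Purkinje markers. Several lists of other cell types had positive median slopes, 1.49 for granule, 1.92 for Bergmann and astrocyte, 1.96 for oligodendrocyte, 2.79 for mural and 3.13 for endothelial genes. Interneuron and precursor genes had 1.29 and 0.74, and the 1 nuclear gene tested 5.21. Microglial, globin, choroid and fibroblast genes had -1.35, -1.42, -1.79 and -4.85. The endothelial sum was highest in M480, the largest library (256 CPM), and the fibroblast sum in M379 (147 CPM). A slope per doubling reaches beyond these libraries, whose totals spanned 1.26 times. Batch and total cannot be told apart in M379 and M386, while M476 belongs to batch 3. In edgeR's test 0 of 14938 genes (0%) moved with the total at an adjusted p under 0.05, 2122 had an unadjusted p under 0.05, and DESeq2 called 16. Whether duplicate reads were removed before counting is not given in the sources used here, and its part in these values was not tested.

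The median marker of each other cell type lay far below the median Purkinje marker, but single genes of the lists overlapped. Of the 24 Purkinje markers, 16 averaged above Clic6, the highest marker of another type (204 CPM, rank 1030). Depending on the library, 16 to 21 of the 24 lay above the highest granule cell marker. Of 110 marker genes of 12 other cell types, 0 were among the 1000 most read genes, 61 averaged under 10 CPM and 9 under 1 CPM. In such bulk RNA, fewer cells of a type and less RNA per cell cannot be told apart. The distance is given as the log2 ratio of the median Purkinje marker to the median marker of the other type, with 0.5 reads added to each median, as a mean ± SD over the 7 libraries.

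Granule cells, the most numerous neurons of the cerebellum, were nearest, at 3.15 ± 0.46 (log2; 5.68-fold in M477 to 13.7-fold in M379). Their summed level ran from 415 CPM in M379 to 876 CPM in M477. Cbln3, a secreted partner of Cbln1, led with 102 CPM in M379, 91.9 in M386, and 207, 130.4, 209, 143 and 154 in F473, M476, M477, M479 and M480. M386 and M379 were lowest and F473 and M477 highest. Gabra6, the GABA receptor subunit typical of granule cells, had 45.8 CPM ± 16.7 (SD, n = 7). Zic2 and Barhl1, transcription factors of the list, had 0 reads in 1 or more libraries and means of 3.42 and 1.23 CPM.

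Bergmann glia and astrocytes followed at 3.80 ± 0.48. Slc1a3, the glutamate transporter of Bergmann glia, whose processes wrap Purkinje dendrites, had 96.5 CPM ± 24.2 (SD, n = 7); Slc1a2 had 75.5 CPM, Aqp4 32.4 and Gfap 17.6. Oligodendrocyte genes lay at 4.66 ± 0.57. Mbp, myelin basic protein, had 95.7 CPM in M379, 67.9 in M386, and 185, 174, 196, 164 and 182 in F473, M476, M477, M479 and M480, and was lower in both M379 and M386 (log2 difference of -0.91 ± 0.17 (SE), adjusted p = 0.0334, and log2 difference of -1.45 ± 0.18 (SE), adjusted p = 0.00165, by edgeR). Sox10, the factor that defines this lineage, had 3.07 CPM. In M379, 0.904% of all genes were lower, and 8.59% without M476. Of 15 oligodendrocyte genes 6 were lower in M386 and of 15 Bergmann and astrocyte genes 4, beside 7.99% of all genes. Without M476 these were 9 and 6, beside 17.3%. Of 14 granule genes 1 was lower in M386 and 0 in M379, and without M476 these were 4 and 9.

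The remaining types were further off. Red blood cell globins lay at 5.40 ± 0.31, interneuron and unipolar brush cell genes at 6.17 ± 0.72, fibroblast genes at 6.45 ± 1.53, endothelial genes at 6.62 ± 1.25, microglial genes at 6.85 ± 0.53, choroid plexus and ependymal genes at 6.88 ± 0.91, mural cell genes at 7.72 ± 0.80, cerebellar nuclear genes at 8.26 ± 0.87 and oligodendrocyte precursor genes at 8.69 ± 0.77. For lists whose median is only a few reads the added 0.5 reads limits the distance. Kit, the receptor of molecular layer interneurons that binds the Kitl made by Purkinje cells, had 3.91 to 22.1 CPM (median 16.7). Slc17a6, a glutamate transporter of cerebellar nuclear neurons, had 2.32 CPM and Tbr1 0.117. Of the microglial genes, P2ry12 and Trem2 had 0 reads in some libraries.

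Endothelial genes varied most within batch 3, where their distance had an SD of 1.12 (n = 5). The sum was 70.2 CPM in M386, 79.9 in M379 and 256 in M480. Cldn5, a tight junction protein of brain vessels, had 7.16 CPM in M379, 2.99 in M386, and 30.00, 41.8, 38.01, 20.9 and 48.4 in F473, M476, M477, M479 and M480, and in M386 a log2 difference of -3.60 ± 0.56 (SE), adjusted p = 0.00459 (edgeR). Tek, the gene of the receptor Tie2, which is floxed in the 4 animals not used here and which endothelium expresses, had 1 read in M379, 0 in M386, and 12, 11, 21, 8 and 40 in F473, M476, M477, M479 and M480. It was highest in M480 and had 0 reads in M386, the same libraries in which Cldn5 was highest and lowest. M386 had 0 reads in 571 tested genes, more than any other library. The part of vessel RNA in the Tek reads was not tested.

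Genes listed for choroid plexus and ependyma split. Clic6, a chloride channel protein, had 204 CPM ± 14.9 (SD, n = 7) at a CV of 6.55%, more reads than any other gene of the 12 lists, and Enpp2 had 77.6 CPM ± 15.2 (SD, n = 7). The defining genes of choroid plexus did not follow: Ttr, transthyretin, had 59.4 CPM in M379, 7.14 in M386, and 75.1, 147, 84.8, 59.7 and 39.9 in F473, M476, M477, M479 and M480, with a log2 difference of -3.53 ± 0.68 (SE), adjusted p = 0.0111 in M386 (edgeR), and Folr1, Kl, Kcne2, Otx2 and Foxj1 averaged 2.82, 2.91, 1.13, 2.29 and 1.26 CPM. Folr1 and Kcne2 had 0 reads in M386, where Ttr was lowest and where more tested genes had 0 reads than in any other library. The sum of this list, 274 to 452 CPM, was mostly Clic6 in every library except M476, where Clic6 had 176 CPM of 452.

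**Figure D5:**
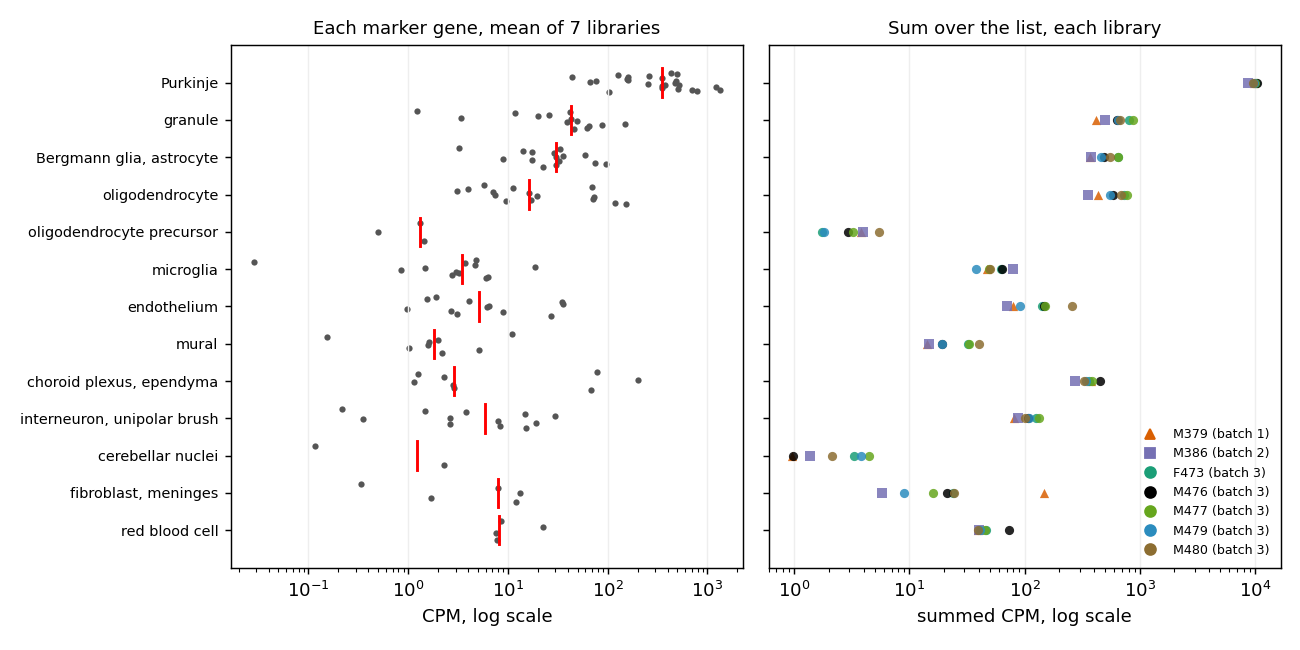
Left, each point is the mean CPM of 1 marker gene over the 7 control libraries and the red tick the median of its list; right, each symbol is the summed CPM of a list in 1 library; both axes are log scales, and rows are the 13 cell type lists. Purkinje genes have a median of 353 CPM and sums that nearly coincide. The granule, Bergmann and astrocyte, and oligodendrocyte lists lie at medians of 16.2 to 42.6 CPM, and the triangle of M379 stands apart in the fibroblast row at 147 CPM.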

How the data were processed

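RNA from anti-HA pull-downs of 7 control cerebella was used. The deposited files give whole-number read counts per gene, made with STAR and HTSeq on GRCm38 per the submitters' processing notes. The sources used here do not give versions, strand, counting mode or duplicate removal. No molecular identifiers are named, so reads need not be separate molecules. The 5 summary lines among the rows stayed out of totals. Counts were divided by the total in genes (CPM). Reads outside genes were 6.11% to 7.76% and ambiguous ones 3.93% to 4.52% of alignments. The planned levels per kilobase were not computed, since no exon lengths were given here; CPM took their place, and genes were not ranked per length. No pair of libraries agreed within sampling noise (chi-square per degree of freedom 2.40 or more).

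Tests used edgeR 4.0.16 in R 4.3.3: filterByExpr left 14938 genes, TMM scaling, a quasi-likelihood fit with batch (4 residual degrees of freedom) or log2 total (5 degrees), two-sided p-values adjusted by Benjamini-Hochberg, threshold 0.05. DESeq2 1.42.0 was an alternative. The fit was tested on simulated data. The standard error is the log2 difference over the root of F. Positions came from RefSeq's GRCm38.p6 table by symbol.

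The control libraries, lists (13 of cell types, 25 of functions) and naming rule were chosen with earlier results of these data known. Named were the 5 markers, the 25 most read genes, up to 4 most read per list, other cell types' markers with 0 reads in a library, the 10 most and least variable genes, and up to 6 of smallest p per test and direction; further list members were named after their values were seen. Some genes that the rule names are not reported here. Other scalings, filters, depths and left-out libraries were tried.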

Additional observations from a re-analysis of the deposited data

Results flagged for a closer look

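Of 175 class sums and gene levels examined over the 7 libraries, 20 had 1 library set apart from the other 6 by a gap larger than Dixon's 95% critical value of 0.568 of the whole range. Of the 42 sums and library measures, 4 were set apart, where chance marks about 1 in 20. The other 16 were among 133 gene levels, and no chance rate applies to these, since many of the genes were named for differing in 1 library or for varying most.

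In M379 the high genes were those of matrix and neutrophils: Col1a1 (70.4 CPM against 0 to 8.07 in the other 6), Col3a1 (29.1 CPM against 0 to 4.08), Chad (18.6 CPM against 0 to 0.427) and Comp (19.8 CPM against 0 to 1.28). Neutrophil genes behaved alike there, with Ngp at 44.6 CPM against 0 to 2.33, Ltf at 30.8 CPM against 0 to 1.17 and S100a9 at 22.7 CPM against 0 to 1.96. The fibroblast sum was also high, at 147 CPM against 5.76 to 24.3, and the ubiquitin gene sum was low, at 1144 CPM against 1256 to 1315.

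M480 was high in Sptan1 (622 CPM against 196 to 367), Sptb (265 CPM against 44.8 to 133), Sptbn1 (439 CPM against 103 to 232) and Dst (322 CPM against 76.1 to 177). It was low in Rpl22, the gene that carries the tag, at 147 CPM against 166 to 173.

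M476 had the highest globin sum (73.6 CPM against 39.6 to 45.8) and the highest Folr1 (13.7 CPM against 0 to 2.19), and the lowest Gad1, an enzyme that makes GABA (321 CPM against 434 to 497). M386 was low in the sum of calcium buffers and pumps (3910.3 CPM against 4303 to 4585) and slightly high in Zfp74, one of the least variable genes (59.2 CPM against 56.9 to 57.4). Trem2 had its only read in M479 (0.201 CPM, 0 elsewhere). The causes were not tested.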

How the results depend on the processing

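Counts of genes called between batches moved most. Leaving out 1 batch 3 library at a time gave 338 to 4115 genes between batches (1258 with all), 18 to 2216 for M379 (168 with all) and 601 to 4123 for M386 (1560 with all). Without a filter on low counts the first rose to 1909 and that of M379 to 442, and DESeq2 gave 486 for M379 and 16 genes moving with the total. With the 5 markers in place of the 24 Purkinje genes, the log2 distance became 4.14 for granule, 4.79 for Bergmann and astrocyte, 5.66 for oligodendrocyte, 9.69 for precursor, 7.85 for microglial, 8.71 for mural, 7.88 for choroid, 7.17 for interneuron, 9.25 for nuclear and 6.39 for globin genes. As a ratio of sums it was 3.96 for granule, 4.31 for Bergmann and astrocyte, 11.60 for precursor, 7.49 for microglial, 8.73 for mural, 4.78 for choroid, 12.13 for nuclear, 8.89 for fibroblast and 7.75 for globin genes. The other 125 of 144 alternatives of these distances, and all 224 alternatives of 25 class shares, stayed within 1 SD, and no direction reversed. The median biological CV was 11.02% in batch 3 alone, 11.8% to 15.2% with 1 library left out, and 9.98% without M386 and M476, a pair left out after the data were seen, as were the list counts without M476 and the most read genes without M386. Causes of these shifts were not tested. The batch test has no value without M379 or M386, and levels per kilobase were not run. No paired analysis was possible because the batches share no replicate numbers. With 3 reads as the least level told from 0, genes under 0.583 to 0.734 CPM were below what this depth resolves.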
